A study of Nicotiana plumbaginifolia and Nicotiana benthamiana and Nicotiana rustica with 81 samples.

Results

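The nectarins are the main proteins of tobacco nectar. The 4 transcripts described here were chosen by their identifiers among the 38230 N. tabacum reference transcripts of the deposited table: nectarin-1 (XM_016580669.1), a nectarin-1-like transcript (XM_016657282.1), a nectarin-3-like transcript (XM_016588226.1) and a xyloglucan-specific fungal endoglucanase inhibitor (KJ874398.1). The last is related to nectarin 4, a name its description does not carry. All 4 were in the table, and all reached a mean of at least 100 in some group, as did each transcript listed there.

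Nectar is a sugar-rich fluid that microbes can grow in, and ornamental tobacco secretes a small set of proteins into it. Nectarin 1 is a germin-like superoxide dismutase that makes hydrogen peroxide in the nectar, nectarin 3 has carbonic anhydrase and monodehydroascorbate reductase activity, and nectarin 4 inhibits fungal enzymes that cut xyloglucan in plant cell walls. In ornamental tobacco the nectary transcription factor MYB305 drives nectarin 1.

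The RNA came from floral nectaries, dissected by hand, of N. benthamiana, N. rustica, N. glauca, N. plumbaginifolia, N. bonariensis and N. clevelandii, each grown from a single germplasm stock to flowering. Nectaries were taken at stage 6 (immature), stage 9 (immature, before secretion), stage 12 (open flower at anthesis) and a post secretory stage that the protocol calls post-fertilization. Leaf, ovary and sepal were taken from N. plumbaginifolia only. The labels name no transgene and no treatment. Each of the 27 groups had 3 libraries, 81 in all. It is not stated whether these came from separate plants, so p-values based on their spread may measure technical error. For every group the deposited values are a mean and an SD of normalised counts, rounded to whole numbers, with no value per library.

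The columns of N. clevelandii and N. bonariensis were identical in all 38230 transcripts. They entered once, as the joint profile, since the values do not show which of the pair they are from. This left 23 distinct groups and 5 nectary profiles. The summed means per group ran from 7824385 to 15248393. The highest sum was that of stage 9 in N. plumbaginifolia, where a single poly(A) polymerase 4-like transcript held 46.8% of it, so shares of the column sum were not used as levels. Library depth is unknown. Median SDs ran from 6.20% to 35.3% of the mean and were widest in N. plumbaginifolia leaf, the post secretory joint profile (30.2%), post secretory N. rustica (25.4%) and stage 12 N. glauca (21.7%).

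The labelled tissues were set against their markers. Summed ribulose bisphosphate carboxylase small chain and chlorophyll a-b binding protein transcripts (57 in the table, 17 of them at 0 in leaf) reached 556478 in leaf, against 108456 in sepal and 37931 in ovary. Ovule MADS-box and INNER NO OUTER relatives (13 transcripts) had an ovary sum of 4273, against a leaf sum of 275 and a sepal sum of 233. Nectaries of N. plumbaginifolia gave 3653, 4991, 4916 and 3719 for this list at stages 6, 9, 12 and post secretory. The list thus set ovary apart from leaf and sepal but not from nectary. The 11 nectary markers (CRABS CLAW, MYB305-like and SWEET9 relatives) summed to 32 in leaf, 1315 in sepal and 2256 in ovary, and to between 6203 and 87621 in nectaries of stages 6, 9 and 12. The CRABS CLAW-like transcript XM_016610040.1, a relative of a gene needed for nectary formation in Arabidopsis, stood at 80 in stage 12 nectaries of N. plumbaginifolia and at 3778 to 9038 in those of the other profiles.

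Nectarin-1 was present in nectaries of all 5 profiles, with means of 937 to 6526 at stages 6, 9 and 12. In N. benthamiana its mean was 5394 (SD 38) at stage 6, 4262 (SD 83) at stage 9, 4523 (SD 93) at stage 12 and 121 (SD 13) after secretion. In N. rustica it was 1339 (SD 29), 2201 (SD 90), 3949 (SD 132) and 204 (SD 63) in the same order. In N. glauca it was 937 (SD 11), 2290 (SD 42), 4586 (SD 2466) and 154 (SD 26). The stage 12 SD of N. glauca was 53.8% of its mean, far wider than at the other stages, so that level is known only loosely.

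In N. plumbaginifolia the nectarin-1 means were 2436 (SD 89), 2427 (SD 160), 5425 (SD 205) and 1434 (SD 14). In the joint profile they were 6526 (SD 170), 6257 (SD 249), 4331 (SD 79) and 103 (SD 3). Over the profiles the means ran from 937 to 6526 at stage 6, from 2201 to 6257 at stage 9 and from 3949 to 5425 at stage 12. After secretion 4 profiles lay between 103 and 204, while N. plumbaginifolia stayed at 1434, above its own leaf, ovary and sepal.

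Between secreting and post secretory nectaries nectarin-1 fell in all 5 profiles, and this was the largest change it showed. The estimate over the 5 profiles was -4.33 on the log2 scale of the authors' mean plus 1 (limma with profile as a block, SE 0.61, adjusted p = 0.005). Limma called 0.786% of the 36627 transcripts tested in this step in either direction, and 2 of the 4 nectarin transcripts, nectarin-1 and nectarin-1-like. Left out in turn, N. benthamiana, N. rustica, N. glauca and the joint profile each ended the nectarin-1 call at the threshold of 0.05, with adjusted p of 0.061, 0.063, 0.054 and 0.055 and estimates of -4.11, -4.35, -4.20 and -4.07. Without N. plumbaginifolia the adjusted p was 0.00091, and without the 3 nectary groups of widest spread it was 0.19 for nectarin-1 (-3.54) and for nectarin-1-like (1.22). All of those groups belong to this step, and only N. benthamiana and N. plumbaginifolia kept both of its stages.

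**Figure D1:**
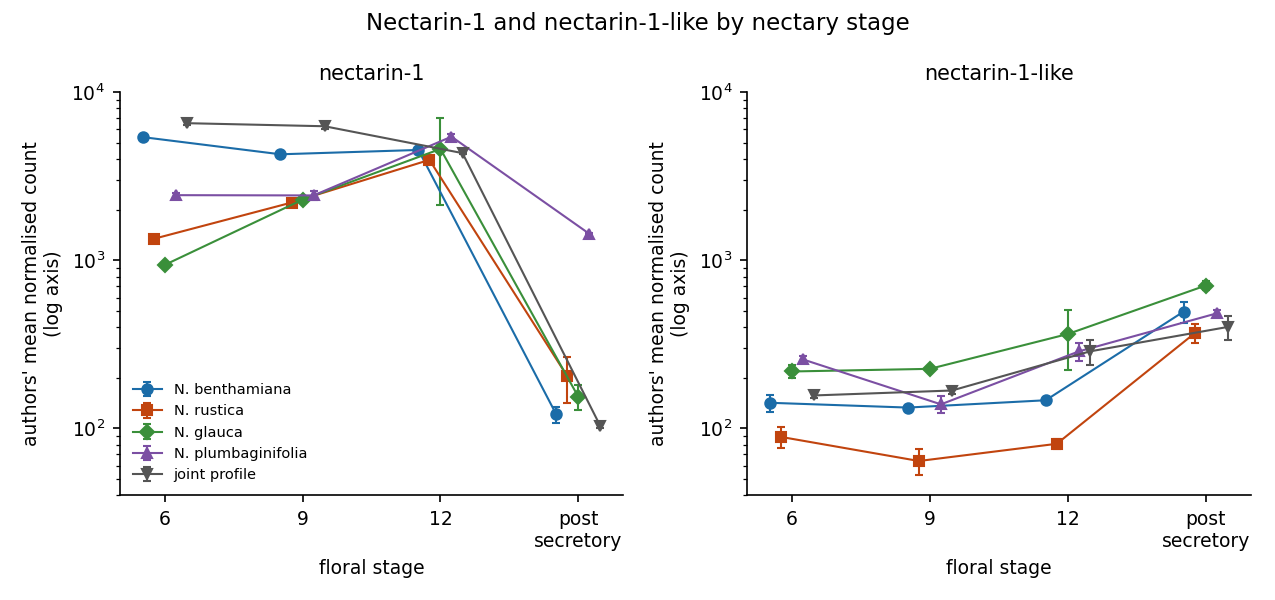
Authors' mean normalised count (log axis) of nectarin-1 (left) and nectarin-1-like (right) at floral stages 6, 9, 12 and post secretory. Points are means of 3 libraries, bars are the authors' SD, and lines join the stages of a profile. Nectarin-1 lies between 3949 and 5425 at stage 12 and between 103 and 1434 after secretion, while nectarin-1-like lies between 81 and 364 and then between 368 and 707.

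Within each profile the same step was set against the spread between libraries with a moderated test computed from the authors' means and SDs (variances shrunk with limma's squeezeVar, p adjusted over all transcripts of the comparison). Nectarin-1 was 37.4-fold lower after secretion in N. benthamiana (-5.21, SE 0.07, adjusted p = 1.8e-21), 19.4-fold lower in N. rustica (-4.27, SE 0.16, adjusted p = 1.1e-09) and 29.8-fold lower in N. glauca (-4.89, SE 0.27, adjusted p = 3.1e-08). It was 42-fold lower in the joint profile (-5.38, SE 0.10, adjusted p = 7.5e-13) and 3.78-fold lower in N. plumbaginifolia (-1.92, SE 0.44, adjusted p = 0.0076, but 0.052 with the variance by the delta method). This test called 69.3%, 50.3%, 64.6%, 36.6% and 13.3% of all transcripts in these profiles, in the order just given, so the call alone says little and the size carries the result. The authors' deposited table also called nectarin-1 in this step in all 5 profiles, with 27.7%, 12.1%, 19.9%, 9.19% and 11.5% of transcripts called in the same order. The size of the fall differed between profiles (moderated F = 75.5, adjusted p = 2.4e-17, with 77% of all transcripts called), and the smallest was that of N. plumbaginifolia.

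Markers of the nectary and of other tissues moved in the same step. The summed nectary markers ran from 14113 to 87621 over the profiles at stage 12 and from 56 to 4171 after secretion. They were lowest after secretion in N. glauca and highest in N. plumbaginifolia, the profile in which nectarin-1 was highest as well. The summed leaf markers went from between 2611 and 19271 to between 23931 and 59753, higher in 5 of 5 profiles, with 16 to 37 of the 57 at 0 in post secretory nectaries. Pollen-specific transcripts (22) went from between 6176 and 8947 to between 9933 and 24513, also higher in 5 of 5, and ovule markers from between 4523 and 9866 to between 1613 and 3719, lower in 5 of 5. Of the 11 nectary markers, 2 to 6 were listed at 0 at stage 12 and 4 to 7 after secretion, with 6 at both in N. plumbaginifolia. Pistil-specific extensins (4 transcripts) hardly moved in N. plumbaginifolia, with sums of 3969 at stage 12 and 3940 after secretion. In that species they also summed to 8027 in stage 9 nectaries, 12596 in ovary and 2454 in leaf. In the other post secretory nectaries they summed to 103 at most. The part of these tissue markers in the nectarin changes was not tested, and in dissected tissue fewer nectary cells and less RNA per cell cannot be told apart.

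Before secretion nectarin-1 followed no common course. From stage 6 to stage 9 the moderated test placed it higher in N. rustica (1.64-fold, adjusted p = 0.0043) and N. glauca (2.44-fold, adjusted p = 0.0033) and lower in N. benthamiana (1.27-fold, adjusted p = 0.00022). It did not pass in N. plumbaginifolia, where the estimate was -0.01 with a 95% interval from -0.94 to 0.93, nor in the joint profile (-0.06, interval -0.28 to 0.16). The shares of all transcripts called in this step were 37.8%, 34.9%, 55%, 33.2% and 28.9%, in the order in which the profiles were just named. By the authors' deposited calls nectarin-1 changed in N. rustica and N. glauca (19.2% and 16.6% of transcripts called) but not in N. benthamiana (17.1%). The steps of the 5 profiles differed (F = 16.8, adjusted p = 1.6e-07, 65% of transcripts called), and limma over the profiles gave 0.32 (SE 0.61, adjusted p = 0.91), with 0% of transcripts called, 0 of 36627, and 2990 at an unadjusted p under 0.05.

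From stage 9 to stage 12 nectarin-1 rose in N. rustica (1.79-fold, adjusted p = 0.0019) and N. glauca (2-fold, adjusted p = 0.0083) and fell in the joint profile (1.44-fold, adjusted p = 0.0053). The N. glauca call was lost when only the compared groups gave the variance (adjusted p = 0.056). In N. plumbaginifolia it was 2.24-fold higher at stage 12, with an adjusted p = 0.062 that rested on the wide leaf libraries in the pooled variance. Without leaf the adjusted p was 9.9e-10, an alternative chosen after seeing the data. N. benthamiana had 0.09 (95% interval -0.05 to 0.22). This step called 28.7% of transcripts in N. rustica, 50.1% in N. glauca, 8.32% in the joint profile, 28.4% in N. plumbaginifolia and 58.3% in N. benthamiana. By the authors' deposited calls nectarin-1 changed in N. rustica, the joint profile and N. plumbaginifolia (15.5%, 11.7% and 15.7% of transcripts called). It was not called in N. glauca (13%) or N. benthamiana (19.6%). The difference between profiles had F = 19.2 (adjusted p = 3.5e-08, 63.7% of transcripts called). Limma over the profiles gave 0.51 (SE 0.61, adjusted p = 0.98), with 0% called and 1776 transcripts at an unadjusted p under 0.05. Adjacent steps share the libraries of their common stage.

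Nectarin-1-like, a second germin-like transcript with the same Arabidopsis match (AT1G09560, germin-like protein 5), took the opposite course after secretion. In N. benthamiana its means were 142 (SD 17), 133 (SD 5), 147 (SD 6) and 495 (SD 72) at stages 6, 9, 12 and post secretory. In N. rustica they were 89 (SD 13), 64 (SD 11), 81 (SD 6) and 368 (SD 47), and in N. glauca 218 (SD 19), 226 (SD 2), 364 (SD 141) and 707 (SD 41). The post secretory mean was the highest of the 4 stages in each of these profiles. In N. plumbaginifolia they were 257 (SD 12), 139 (SD 16), 287 (SD 34) and 483 (SD 24), and in the joint profile 157 (SD 5), 168 (SD 8), 287 (SD 50) and 401 (SD 65). The same held there, so the 5 highest nectarin-1-like levels of all 23 groups were the 5 post secretory nectaries, although those of N. rustica (368) and of stage 12 N. glauca (364) overlapped within their SDs.

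Over the 5 profiles nectarin-1-like rose by 1.22 from stage 12 to the post secretory stage (limma, SE 0.21, adjusted p = 0.017), higher in 5 of 5. As with nectarin-1, leaving out any profile other than N. plumbaginifolia ended the call, with the adjusted p rising to 0.061 without the joint profile, 0.1 without N. glauca, 0.11 without N. rustica and 0.17 without N. benthamiana. Within profiles the rise was 4.54-fold in N. rustica (adjusted p = 5.6e-07), 3.37-fold in N. benthamiana (adjusted p = 4.6e-11), 1.94-fold in N. glauca (adjusted p = 0.0013), 1.68-fold in N. plumbaginifolia (adjusted p = 0.014) and 1.4-fold in the joint profile (adjusted p = 0.034). With the variance of the compared groups alone the joint profile had an adjusted p = 0.12, and the authors' deposited table called the step in the other 4 profiles but not there. The sizes differed between profiles (F = 21.1, adjusted p = 6e-09).

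Before secretion nectarin-1-like stayed between 64 and 257 at stages 6 and 9. From stage 6 to 9 it fell in N. plumbaginifolia (1.85-fold, adjusted p = 0.0017) and in N. rustica (1.39-fold, adjusted p = 0.045, lost at a pseudocount of 10, where the adjusted p was 0.052). From stage 9 to 12 it rose in N. plumbaginifolia (2.06-fold, adjusted p = 0.00059), the joint profile (1.71-fold, adjusted p = 0.01) and N. glauca (1.61-fold, adjusted p = 0.014, and 0.075 with the variance of the compared groups alone). Neither the N. rustica fall (19.2% of transcripts called) nor the N. glauca rise (13%) was among the authors' deposited calls. Over the profiles the step from stage 9 to 12 was 0.59 (limma, SE 0.21, adjusted p = 0.98), higher in 5 of 5. The steps of the profiles differed both from stage 6 to 9 (F = 7.14, adjusted p = 0.00047) and from stage 9 to 12 (F = 5.31, adjusted p = 0.0032).

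A ratio of the same pair of transcripts can be compared between groups without their lengths. The ratio of nectarin-1 to nectarin-1-like restates the counter-movement from the same means and is not separate evidence for it. At stage 12 the authors' means gave 48.8 for N. rustica, 30.8 for N. benthamiana, 18.9 for N. plumbaginifolia, 15.1 for the joint profile and 12.6 for N. glauca. After secretion the ratio was 0.554, 0.244, 2.97, 0.257 and 0.218 in the same order. The post secretory ratio of N. plumbaginifolia was close to those of its ovary (2.95) and sepal (2.57), and leaf had 1.05. Reads that match both transcripts could be split by the authors' counting in a way not given in the sources used here, so each of the pair is uncertain to that extent.

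**Figure D2:**
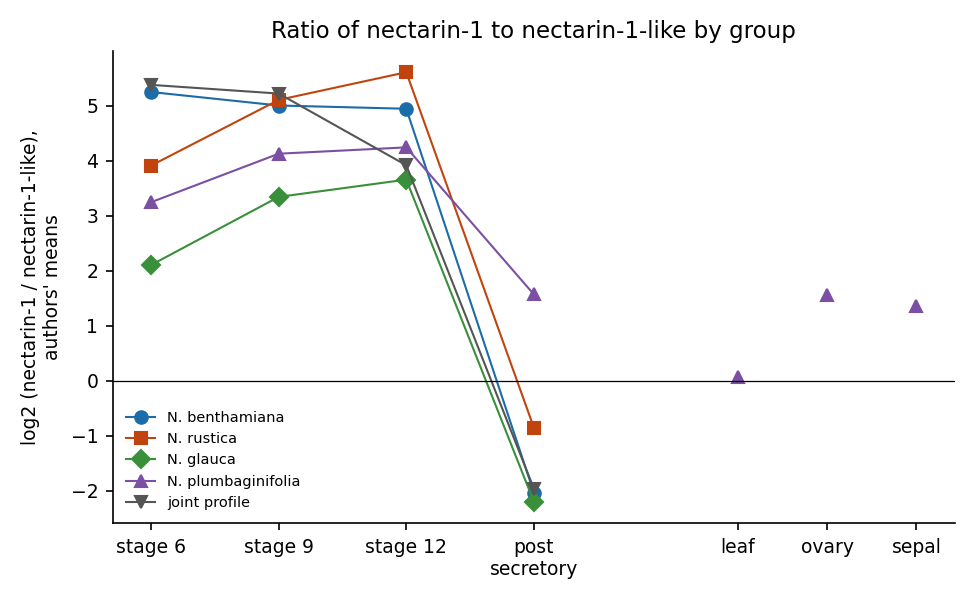
Log2 ratio of the authors' means of nectarin-1 and nectarin-1-like in each group, with nectary stages joined within a profile and the 3 other N. plumbaginifolia tissues to the right. Values are above 2 in all nectaries of stages 6, 9 and 12 and lie between -2.20 and 1.57 after secretion; no error is drawn because values per library are not given.

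Nectarin-3-like, the carbonic anhydrase and monodehydroascorbate reductase of the set, reached a mean of 10 in 2 of the 5 profiles. In N. rustica its means were 2347 (SD 33) at stage 6, 16614 (SD 159) at stage 9, 21212 (SD 853) at stage 12 and 358 (SD 163) after secretion. In the joint profile they were 1128 (SD 36), 1869 (SD 83), 2980 (SD 258) and 130 (SD 223). The last SD is 172% of its mean, so the post secretory libraries of the joint profile differ widely. It was listed at 0 in N. benthamiana and in the nectaries, leaf and sepal of N. plumbaginifolia, at 1 (SD 2) in its ovary, and at 1, 8, 0 and 0 in N. glauca. All species were counted on N. tabacum transcripts, so a 0 for divergent sequence and a 0 for missing RNA cannot be told apart. By a rule set after the values were seen, 1242 transcripts (3.25% of the table) were likewise at 10 or less in all 15 groups of these 3 species while reaching 100 in both N. rustica and the joint profile.

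In both profiles nectarin-3-like had its highest mean at stage 12 and its lowest after secretion. In N. rustica it rose 7.08-fold from stage 6 to 9 (moderated test, adjusted p = 2e-06), had 1.28-fold more at stage 12 (adjusted p = 0.28, and 2.8e-07 with the variance of the compared groups alone) and fell 59.3-fold after secretion (adjusted p = 1.1e-09). In the joint profile the first steps were 1.66-fold (adjusted p = 0.35, and 2.1e-05 with the compared groups alone) and 1.59-fold (adjusted p = 0.54, and 0.00041), and the fall was 22.9-fold (adjusted p = 3e-05). The wide post secretory spread enters the pooled variance of those first steps. The authors' deposited table called all 3 steps in the joint profile, with 23.2%, 11.7% and 9.19% of its transcripts called. In N. rustica it called the first and last but not the middle step, with 19.2%, 12.1% and 15.5% of transcripts called in that order.

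Over all 5 profiles the fall after secretion was -2.08 (limma, SE 0.81, adjusted p = 0.23). This value averages the 2 profiles where the transcript reached a mean of 10 and 3 where it was listed at or near 0. With N. rustica and the joint profile alone, an alternative added after seeing the data, limma gave -5.20 (SE 0.56, adjusted p = 0.043). These 2 profiles were picked by the same levels that the fit compares, so this adjusted p is not support for a fall. Between these profiles the size of the fall did not pass the test of a difference (F = 4.14, adjusted p = 0.13), the sizes being -5.88 (95% interval -6.37 to -5.40) and -4.51 (-5.67 to -3.34). The change from stage 6 to 9 was 2.82 (2.34 to 3.31) in N. rustica and 0.73 (-0.44 to 1.89) in the joint profile.

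**Figure D3:**
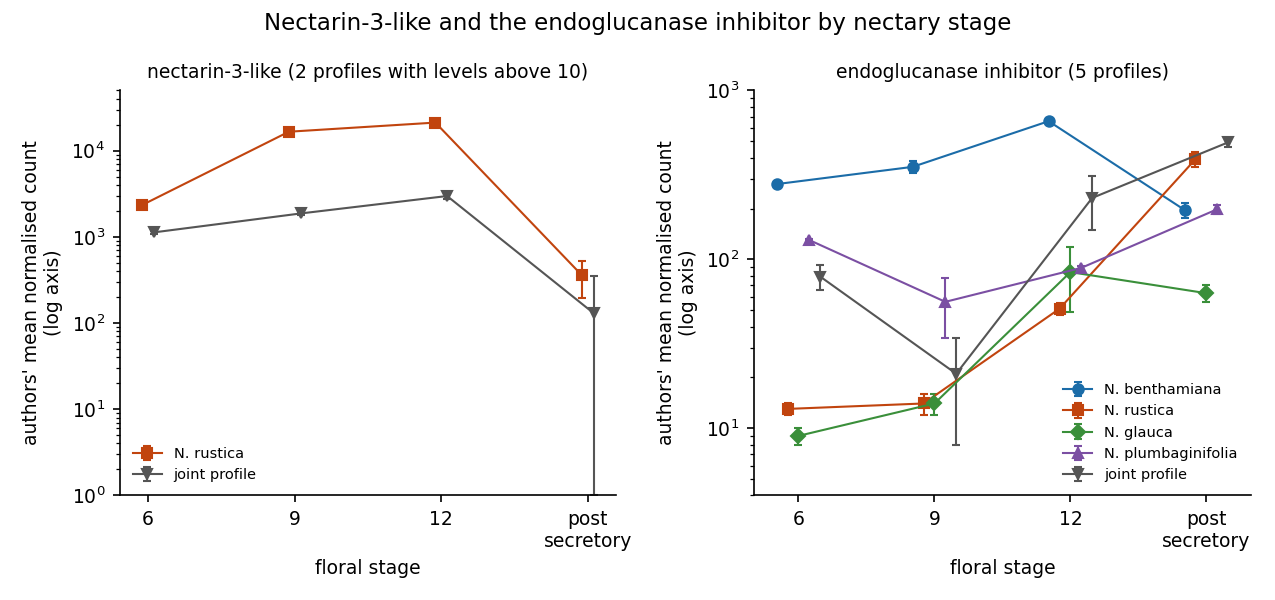
Authors' mean normalised count (log axis) by floral stage for nectarin-3-like in N. rustica and the joint profile (left) and for the endoglucanase inhibitor in all 5 profiles (right). Bars are the authors' SD over 3 libraries; the lower bar of the post secretory joint profile at left, whose SD of 223 exceeds its mean of 130, runs to the axis. Nectarin-3-like is highest at stage 12 and lowest after secretion in both, while the inhibitor has its highest mean at stage 12 in N. benthamiana and N. glauca and after secretion in the 3 other profiles.

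The endoglucanase inhibitor transcript, whose Arabidopsis match (AT1G03220) is an aspartyl protease family protein, rose in all 5 profiles between stage 9 and the open flower and moved in both directions after secretion. In N. benthamiana its means were 279 (SD 9), 353 (SD 27), 658 (SD 29) and 196 (SD 21). In N. rustica they were 13 (SD 1), 14 (SD 2), 51 (SD 4) and 392 (SD 41), and in N. glauca 9 (SD 1), 14 (SD 2), 84 (SD 35) and 63 (SD 7). Stage 6 and 9 levels in the latter pair were near the filter of 10 and are thinly supported. In N. plumbaginifolia they were 130 (SD 2), 56 (SD 22), 89 (SD 2) and 198 (SD 13), and in the joint profile 79 (SD 13), 21 (SD 13), 231 (SD 81) and 493 (SD 28). The highest mean of all was therefore stage 12 of N. benthamiana, and in N. rustica, N. plumbaginifolia and the joint profile the highest nectary mean came after secretion.

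From stage 9 to stage 12 the inhibitor rose in all 5 profiles by the moderated test: 11-fold in the joint profile (adjusted p = 6.2e-05), 6-fold in N. glauca (adjusted p = 1.8e-05), 3.64-fold in N. rustica (adjusted p = 1.4e-05), 1.86-fold in N. benthamiana (adjusted p = 3.5e-08) and 1.59-fold in N. plumbaginifolia (adjusted p = 0.04). The last was lost with the variance of the compared groups alone (adjusted p = 0.15), and the authors' deposited table called neither it (15.7% of transcripts called) nor the N. rustica step. Limma over the profiles gave 1.85 (SE 0.68, adjusted p = 0.98), and the size differed between profiles (F = 22.9, adjusted p = 4e-09).

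From stage 6 to 9 the inhibitor fell in the joint profile (3.76-fold, adjusted p = 0.001) and N. plumbaginifolia (2.32-fold, adjusted p = 0.00058) and rose in N. benthamiana (1.27-fold, adjusted p = 0.0023). Of these the authors' deposited table called only the N. plumbaginifolia fall. It called 18% of transcripts there, 23.2% in the joint profile and 17.1% in N. benthamiana. N. rustica had 0.10 (95% interval -0.29 to 0.49) and N. glauca 0.58 (0.00 to 1.17). After secretion it rose 7.69-fold in N. rustica (adjusted p = 6.6e-08), 2.22-fold in N. plumbaginifolia (adjusted p = 0.0027) and 2.13-fold in the joint profile (adjusted p = 0.022, and 0.055 with no filter on low values), and fell 3.36-fold in N. benthamiana (adjusted p = 1.2e-12). N. glauca had -0.41 (-0.996 to 0.177). The profiles differed in both steps (F = 20.2, adjusted p = 1.9e-08, and F = 55.1, adjusted p = 4.5e-15), and limma gave 0.60 after secretion (SE 0.68, adjusted p = 0.68), with 3 profiles higher and 2 lower. Without the 3 groups of widest spread that estimate was -0.34. Both stages were then left only in N. benthamiana, where the inhibitor fell, and N. plumbaginifolia, where it rose.

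**Figure D4:**
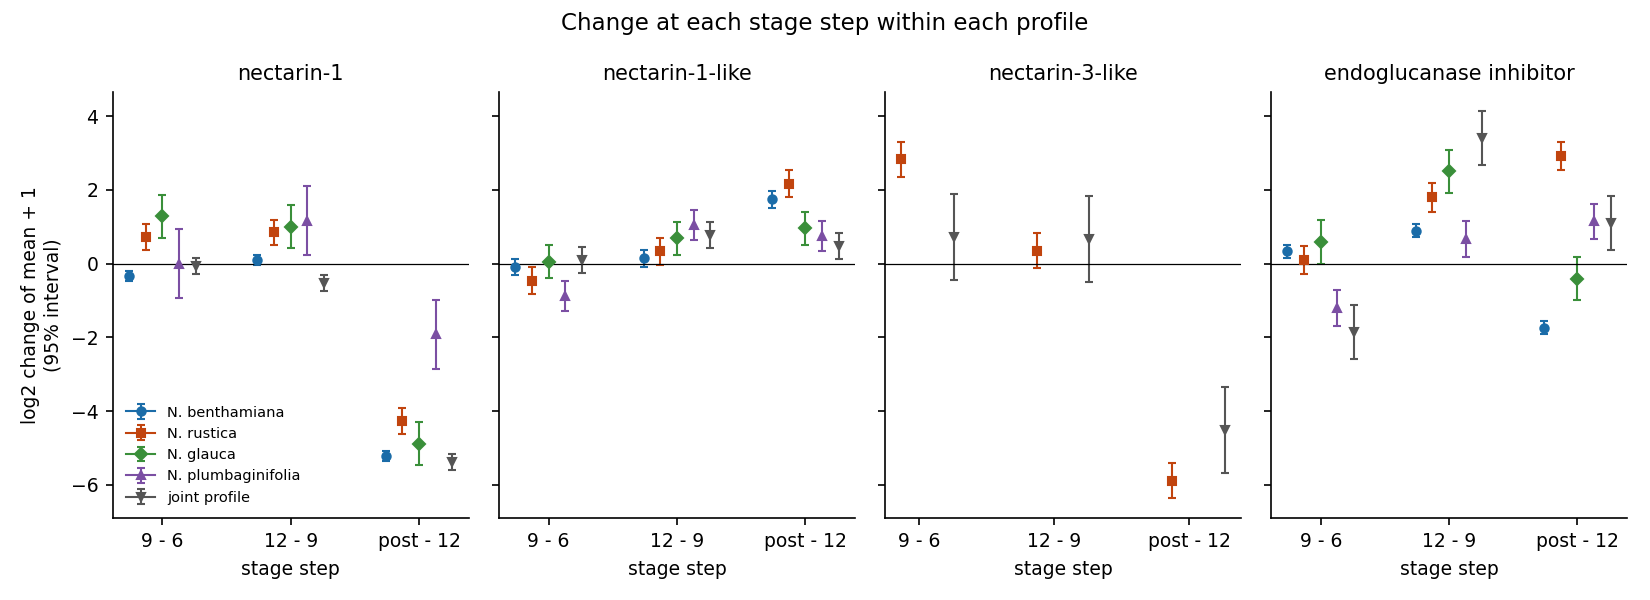
Log2 change of the authors' mean plus 1 at each stage step within each profile, from the moderated test, with 95% intervals. Nectarin-1 is below 0 and nectarin-1-like above 0 in all 5 profiles after secretion. Nectarin-3-like is shown for the 2 profiles where it passed the filter on low values. The endoglucanase inhibitor is above 0 in all 5 at the step from stage 9 to 12.

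In N. plumbaginifolia nectarin-1 was higher in the nectary than in the other tissues at all 4 stages. Nectarin-1 had a mean of 118 (SD 175) in leaf, 319 (SD 15) in ovary and 567 (SD 15) in sepal. The leaf SD is 148% of the mean, so its libraries disagree. At stage 6 it was 20.6-fold above leaf, 7.64-fold above ovary and 4.3-fold above sepal, and at stage 9 20.6-fold, 7.61-fold and 4.28-fold (adjusted p of at most 0.00035). At stage 12 nectarin-1 was 46-fold above leaf (5.51, SE 0.44, adjusted p = 2.9e-09), 17-fold above ovary (4.08, adjusted p = 1.9e-07) and 9.57-fold above sepal (3.26, adjusted p = 2.9e-06). Even after secretion it was 12.2-fold above leaf, 4.5-fold above ovary (adjusted p = 0.00031) and 2.53-fold above sepal (adjusted p = 0.011, and 0.056 by the delta method). Against leaf, ovary and sepal in that order the test called 73.1%, 70.7% and 77.7% of transcripts at stage 6, 72.1%, 66.4% and 77.8% at stage 9, and 72%, 70.8% and 78% at stage 12. These contrasts share nectary or tissue libraries with each other.

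Among the tissues themselves nectarin-1 was 4.81-fold higher in sepal than in leaf (adjusted p = 0.00023, 63.1% of transcripts called) and 2.7-fold higher in ovary than in leaf (adjusted p = 0.0088, 70.3% called). Between sepal and ovary the means differed 1.78-fold with SDs of 15 each, but the contrast did not pass (adjusted p = 0.11, 71.7% called) in a fit whose pooled variance holds the wide leaf libraries. The authors' deposited table called nectarin-1 between ovary and sepal and between leaf and sepal but not between leaf and ovary, with 38.2%, 19.2% and 19.5% of transcripts called.

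For nectarin-1-like and the inhibitor the range of nectary means before the post secretory stage overlapped that of the other tissues. Nectarin-1-like had 112 (SD 46) in leaf, 108 (SD 11) in ovary and 221 (SD 11) in sepal, a range that its nectary means of 139 to 287 at stages 6, 9 and 12 overlapped. At stage 6 it was 2.29-fold above leaf (adjusted p = 2.1e-05) and 2.38-fold above ovary (adjusted p = 1.4e-05), and at stage 9 it was 1.59-fold below sepal (adjusted p = 0.0043). It was higher at stage 12 than in leaf (2.56-fold, adjusted p = 5e-06) and ovary (2.66-fold, adjusted p = 3.4e-06) but not past the threshold against sepal (1.3-fold, adjusted p = 0.083, and 0.013 with the variance of the compared groups alone). By the authors' deposited calls it differed from ovary and sepal at stage 12 (34.4% and 39.9% of transcripts called). Those calls did not include leaf, either at stage 12 (21.6%) or at stage 6 (22%). After secretion nectarin-1-like stood above all 3 tissues, 4.31-fold, 4.47-fold and 2.19-fold (adjusted p = 1.6e-08, 1.2e-08 and 3.7e-05, with 71.9%, 68.4% and 77.8% of transcripts called). The inhibitor had 65 (SD 15) in leaf, 82 (SD 25) in ovary and 128 (SD 5) in sepal. At stage 6 it was 2-fold above leaf (adjusted p = 0.00085) and 1.59-fold above ovary (adjusted p = 0.016). At stage 9 it was 2.29-fold below sepal (adjusted p = 0.00015) and 1.46-fold below ovary (adjusted p = 0.046, and 0.23 with the variance of the compared groups alone). Neither the stage 6 contrast with leaf (22% of transcripts called) nor the stage 9 contrast with ovary (31.6%) was among the authors' deposited calls. At stage 12 it was 1.44-fold below sepal (adjusted p = 0.047, and 0.15 with median-of-ratios scaling) and did not pass against ovary (0.12, 95% interval -0.37 to 0.60, adjusted p = 0.69) or leaf (0.45, -0.04 to 0.93, adjusted p = 0.09). After secretion it was 3.05-fold above leaf (adjusted p = 6.2e-06), 2.41-fold above ovary (adjusted p = 9.2e-05) and 1.55-fold above sepal (adjusted p = 0.02).

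**Figure D5:**
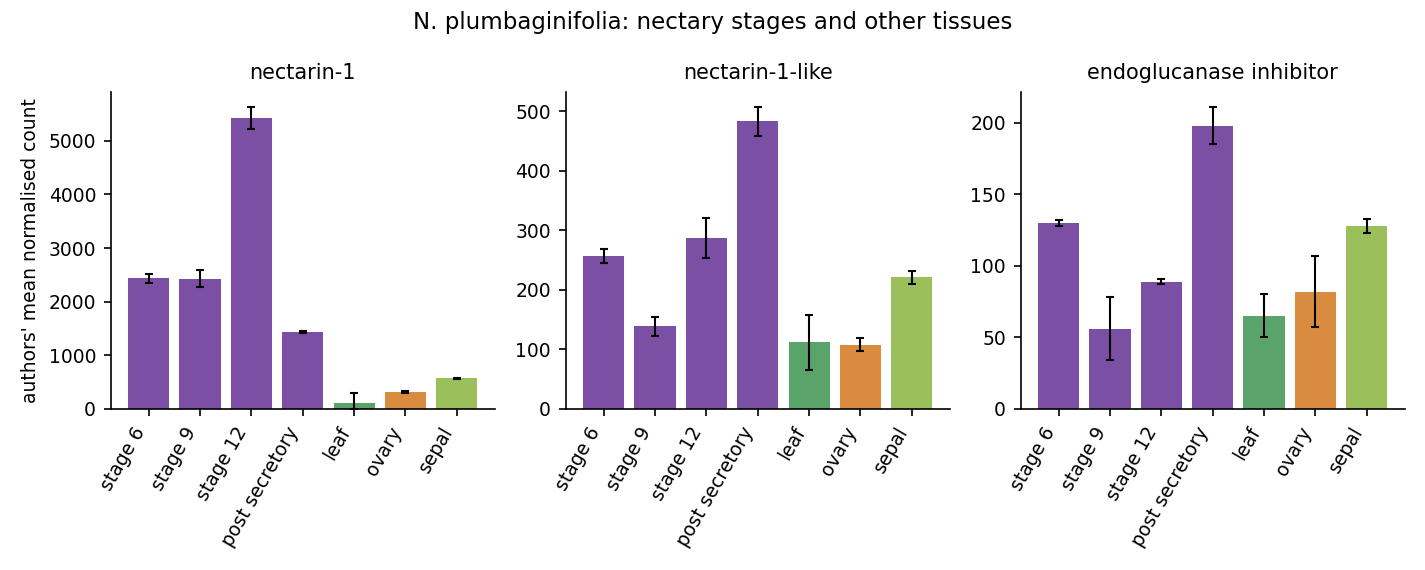
Authors' mean normalised count in the 4 nectary stages and 3 other tissues of N. plumbaginifolia, on a linear axis from 0 for each transcript, with the authors' SD over 3 libraries as bars. Nectarin-1 is above leaf, ovary and sepal at every nectary stage, while the nectary means of nectarin-1-like and of the inhibitor overlap those of the other tissues before the post secretory stage.

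Ordered over all 23 groups, nectarin-1 ran from the joint profile at stage 6 (6526) to the joint profile after secretion (103). Of the 22 neighbouring pairs in that order, 12 had overlapping ranges of mean plus or minus SD, among them the lowest 5 groups, which are the post secretory nectaries of N. rustica, N. glauca, N. benthamiana and the joint profile and N. plumbaginifolia leaf. Nectarin-1-like ran from post secretory N. glauca (707) to stage 9 N. rustica (64), with 19 of 22 pairs overlapping. The inhibitor ran from stage 12 N. benthamiana (658) to stage 6 N. glauca (9), with 15 overlapping. Nectarin-3-like ran from stage 12 N. rustica (21212) to the groups listed at 0, with 15 overlapping, all at or below the 358 of post secretory N. rustica.

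The table holds 3 further transcripts described as nectarins. The nectarin-3-like copy XM_016633651.1 had 134, 992, 1468 and 45 over the stages of N. rustica and 15, 34, 111 and 47 in the joint profile, was listed at 0 in N. benthamiana and N. plumbaginifolia, and reached 5 at most in N. glauca. It thus shared the species range and, in N. rustica, the stage course of XM_016588226.1. The nectarin-1-like transcript XM_016579945.1 reached 326 at stage 12 of N. rustica and was at or below 92 elsewhere. From stage 12 to the post secretory stage it was lower in 4 profiles and higher in 0 (limma -1.51, SE 0.55, adjusted p = 0.21). It thus did not share the rise of XM_016657282.1. The other, XM_016601497.1, had 870 in N. plumbaginifolia sepal, 64 in leaf and 36 in ovary, and was listed at 0 in that species' nectaries. Reads shared with these copies may be split between them.

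By the correlation of log2 levels over the 23 group means, the transcripts most like nectarin-1 were a chloroplast peptide chain release factor PrfB3-like transcript (XM_016636116.1, r = 0.906), CURVATURE THYLAKOID 1A-like, which shapes chloroplast membranes (XM_016648482.1, r = 0.902), and a MYB305-like transcript (XM_016644811.1, r = 0.880). The MYB305-like transcript had 5573, 3039, 3410, 2209 and 2029 at stage 12 of N. benthamiana, N. rustica, N. glauca, N. plumbaginifolia and the joint profile, and 10, 43, 2, 555 and 18 after secretion. It too was highest after secretion in N. plumbaginifolia. Nearest to nectarin-1-like were 12-oxophytodienoate reductase 3 of jasmonate synthesis (XM_016592560.1, r = 0.791), a tetraspanin-2-like transcript (XM_016611978.1, r = 0.788) and a RING1-like ubiquitin ligase (XM_016617601.1, r = 0.779). These points share their libraries and normalisation, and the correlations are descriptions.

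Nearest to nectarin-3-like were a pleiotropic drug resistance protein 1-like transporter (XM_016580736.1, r = 0.988), a SEC14-like lipid transfer factor (XM_016638497.1, r = 0.984) and an uncharacterized transcript (XM_016622588.1, r = 0.982), all listed at 0 in the same 3 species, and those shared zeros enter r. Nearest to the inhibitor were the RNA helicase DB10-like XM_016589186.1 (r = 0.871), the homeobox LET12-like XM_016649851.1 (r = 0.797) and the kinase HT1-like XM_016588681.1 (r = 0.794). Among the 4 nectarin transcripts the correlation of nectarin-1 with nectarin-1-like was -0.369 over the 23 groups and -0.585 over the 20 nectary means.

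Relatives of the nectarins by enzyme class were counted in the limma fit after secretion, where the median change of all transcripts tested was -0.04. Over all transcripts 0.786% were called in this step, a share at which lists of this size would often hold none. None passed among 12 tested germin-like proteins (median 0.13), 21 carbonic anhydrases (-0.03), 8 monodehydroascorbate reductases (-0.30), 22 superoxide dismutases (-0.18), 4 endoglucanase inhibitors and 7S globulin relatives (-0.01) and 4 respiratory burst oxidases (0.77), which make superoxide. Of 13 berberine bridge type oxidases, the family of nectarin 5, 1 fell and 0 rose (median 0.19): the cannabidiolic acid synthase-like XM_016601690.1 (-7.25, SE 1.13, adjusted p = 0.0082). Of 10 nectary regulators and sugar exporters 5 fell and 0 rose (median -4.48). From stage 6 to 9, 9 to 12 and 6 to 12 no member of any of these lists passed, nor did a nectarin transcript. Limma called 0.838% of transcripts from stage 6 to 12, and the nectarin estimates there were 0.83 (SE 0.61), 0.34 (SE 0.21), 0.72 (SE 0.81) and 1.44 (SE 0.68) for nectarin-1, nectarin-1-like, nectarin-3-like and the inhibitor, with adjusted p of 0.5, 0.44, 0.67 and 0.3.

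The germin-like relative with the highest mean over nectaries was, like nectarin-3-like, highest in N. rustica and the joint profile. Germin-like protein subfamily 1 member 17 (XM_016631144.1) had 12015, 73462, 45013 and 101 over the stages of N. rustica and 83674, 157532, 149525 and 325 in the joint profile, and at most 482 in N. benthamiana, 67 in N. glauca and 1179 in N. plumbaginifolia. Its limma estimate after secretion was -4.28 (SE 1.30, adjusted p = 0.14), with 4 profiles lower and 1 higher.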

How the data were processed

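RNA-seq libraries (TruSeq RNA v2, paired-end, per the labels' protocols) were deposited as a single table. Per the file headers it holds a mean and an SD for each group, scores that are normalised counts written as whole numbers by the authors. DESeq is named in the submitters' processing notes. Aligner, counting rules and strand setting are not stated there or elsewhere in the sources used here. The remaining columns are the authors' deposited yes or no calls (unit other), with no stated threshold. Library depth is unknown, so no counting interval is given. The protocol's library number and its stems differ from the sample titles, which were followed.

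Steps over profiles used limma 3.58.1 (R 4.3.3, with data.table version 1.17.8) on log2 of the mean plus a pseudocount of 1, with profile as a block, a variance trend and Benjamini-Hochberg adjusted p under 0.05. A minimum of 10 was set on the average of the nectary groups. The profiles are the replicates (n = 5), and an exact sign-flip test over them cannot go below 0.0625. Steps within a profile, tissue contrasts and differences between profiles (F) used the authors' SDs: the variance of log2 values was derived from SD over mean, pooled over the groups of the fit and shrunk with limma's squeezeVar. This is approximate, and nectarin-3-like was too low for it in 3 species. Both were run on simulated data in which all groups of a transcript had the same spread. The real groups differ in spread, so that run does not show how the tests behave here. Of 51 nectarin tests of steps within profiles, 39 gave the same call as the authors' deposited table. Another 9 passed only the moderated test and 3 only the authors' call. Of 45 tissue tests, 36 gave the same call, 7 passed only the moderated test and 2 only the authors' call. Agreement over all transcripts was not counted, so these numbers are no check of the moderated test. Alternatives were other pseudocounts, filters, scalings and variance estimates, both identical copies counted, and profiles or wide groups left out. Named are the 4 nectarins, the 3 transcripts of highest correlation with each, the most abundant of a list, and markers where they touch a result. The 3 further nectarin copies were named after their values were seen. The germin pattern was narrowed to leave out a germinal center kinase. Members and lists were chosen with earlier results of these data known. No sequences or coordinates were used here.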

Additional observations from a re-analysis of the deposited data

Results flagged for a closer look

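The size of the stage changes differed between the 5 profiles for nectarin-1, nectarin-1-like and the endoglucanase inhibitor by the moderated F test. That test also called 65%, 63.7% and 77% of all transcripts tested at the steps from stage 6 to 9, 9 to 12 and 12 to post secretory. For nectarin-1, F was 16.8, 19.2 and 75.5 in these steps. The steps of the profiles ran from -0.34 to 1.29, from -0.53 to 1.16 and from -5.38 to -1.92 on the log2 scale. For nectarin-1-like it was 7.14, 5.31 and 21.1, with ranges from -0.88 to 0.10, 0.14 to 1.04 and 0.48 to 2.17.

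For the endoglucanase inhibitor F was 20.2, 22.9 and 55.1, with ranges from -1.86 to 0.58, 0.66 to 3.40 and -1.74 to 2.92, and the last includes opposite directions in N. benthamiana and N. rustica. For nectarin-3-like F was 10.2, 14.8 and 51, but 3 of the profiles stood at or near 0 there. A profile listed at 0 cannot show a step, so these values do not show that the course differs between species. The middle value rests on the N. glauca means of 8 and 0 at stages 9 and 12: without N. glauca F was 0.825 (adjusted p = 0.58). Between N. rustica and the joint profile alone the last 2 steps did not pass (F of 0.224 and 4.14, adjusted p = 0.83 and 0.13). The first step passed under all 8 alternatives.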

How the results depend on the processing

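No paired analysis was possible because the table gives no values per library, so the shared replicate numbers could not be used as a block. Without the 3 groups of widest spread, the post secretory estimates were -3.54 for nectarin-1 (adjusted p = 0.19), 1.22 for nectarin-1-like (adjusted p = 0.19) and -0.34 for the inhibitor, reversed in sign. The groups left out were post secretory N. rustica, the post secretory joint profile and stage 12 N. glauca. Only N. benthamiana and N. plumbaginifolia thus kept both stages of the step. Leaving out a profile gave -4.94 to -4.07 for nectarin-1 and 0.98 to 1.40 for nectarin-1-like after secretion, each past the threshold once in 5. Fewer samples enter these fits. Nectarin-3-like from stage 9 to 12 turned from -0.43 to 0.0349 at a pseudocount of 10 and 0.51 in N. rustica and the joint profile alone, and ranged from -0.70 to 0.26 with a profile left out. After secretion it passed with both copies counted (-2.48, adjusted p = 0.049) and in those 2 profiles (-5.20). Neither pass is support for a fall. Counting both copies treats the same values as separate replicates, and the 2 profiles were picked by the levels under test.

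Counts of transcripts called over profiles moved most. With both copies counted they were 111, 3, 2275 and 1967 for the steps 6 to 9, 9 to 12, 6 to 12 and 12 to post secretory, against 0, 0, 307 and 288. Counting both copies treats the same values as separate replicates, so those higher counts are not to be read as more changes. A minimum mean of 100 gave 2, 546 and 463 in the last 3 steps. Column-sum scaling gave 115 and 188 and leaving out the widest groups 72 and 4 in the last 2 steps. Leaving out a profile gave 0 to 3, 0 to 0, 4 to 114 and 2 to 724, and the highest of the last 2 was without N. plumbaginifolia.

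Within profiles, variance from the compared groups alone brought past the threshold nectarin-3-like in N. rustica from stage 9 to 12 (0.35) and in the joint profile in its first 2 steps (0.73 and 0.67), the inhibitor in N. glauca from stage 6 to 9 (0.58), nectarin-1 in N. plumbaginifolia from stage 9 to 12 (1.16, also without leaf and, at 1.93, with column-sum scaling) and nectarin-1-like against sepal at stages 6 and 12 (0.22 and 0.38) and ovary at stage 9 (0.36). It took below it nectarin-1 (1.00) and nectarin-1-like (0.69) in N. glauca from stage 9 to 12, the inhibitor in N. plumbaginifolia at that step (0.66) and against ovary at stage 9 (-0.54), and nectarin-1-like in the joint profile after secretion (0.48). Nectarin-1-like in N. rustica from stage 6 to 9 was lost at a pseudocount of 10 (-0.42), with no filter (-0.47) and with median-of-ratios scaling (-0.44). With no filter the inhibitor was lost in N. plumbaginifolia from stage 9 to 12 (0.66), against ovary at stage 9 (-0.54) and sepal at stage 12 (-0.52) and in the joint profile after secretion (1.09). The delta method lost nectarin-1 in N. plumbaginifolia after secretion (-1.92) and against sepal (1.34), and the same inhibitor contrasts with ovary (-0.54) and sepal (-0.52). Median-of-ratios scaling lost these as well (-0.33 and -0.37) and brought past it nectarin-1-like against ovary at stage 9 (0.58) and sepal at stage 12 (0.52). Column-sum scaling, in which the poly(A) polymerase-like transcript enters, reversed nectarin-1-like at stage 9 against leaf (-0.38) and ovary (-0.59) and in N. glauca from stage 6 to 9 (-0.0141) and the inhibitor against ovary at stage 12 (-0.0737), and called the inhibitor below leaf at stage 9 (-0.90). With such changes the number of nectarin transcripts called moved from 1 to 2 or from 2 or 3 to 1 in 10 cases. Between N. rustica and the joint profile alone the differences of nectarin-1-like (F of 6.65 and 3.90 in the first steps) and of nectarin-3-like (0.224 and 4.14 in the last 2) did not pass, nor did the latter without N. glauca at the step from stage 9 to 12 (0.825). Each estimate was counted once under each alternative. Over profiles, 212 such cases kept their direction and side of the threshold, 4 reversed in sign, 2 came past the threshold and 10 were lost. In the same order the counts were 348, 1, 7 and 10 within profiles and 235, 3, 6 and 8 against tissues. For differences between profiles 91 cases kept their side of the threshold and 5 were lost. Unless said otherwise, the cause was not tested.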
